A study of Homo sapiens with 12 samples.

Results

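The contrast described here is that of 786-O cells given everolimus together with SGI-1027 against 786-O cells given the vehicle, DMSO. It rests on 6 of the 12 RNA-seq libraries of the study, 3 of the combination and 3 of DMSO, all collected after 24 h. Its genes were not chosen by hand: of 17085 genes in the deposited count table, 12841 had enough reads to be tested, 4244 did not, and every tested gene entered the comparison. The text then describes the genes that changed at least 2-fold at a mean of at least 10 CPM (read counts scaled to the size of each library and normalized between libraries), called well expressed below, grouped by what their products do. That mean was taken over the 6 libraries, so a gene could pass through its higher group alone. Several of the largest changes below did so. The combination was 5 µM everolimus with 1.5 µM SGI-1027. The other 6 libraries are 3 of 1.5 µM SGI-1027 alone and 3 of everolimus alone, and share in the normalization, filter and estimate of spread of the fit; their values are given only where the combination is set against each drug. For everolimus alone, the labels of each library give 5 µM and the treatment protocol gives 10 µM, so a difference between the combination and everolimus alone may include a difference in dose. All 4 groups are labelled as the same wild-type cell line.

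786-O is an established line from a clear cell renal carcinoma that lacks functional VHL and so keeps HIF2 active. Everolimus binds FKBP12 and inhibits mTORC1, the kinase complex that drives ribosome production, translation and growth. SGI-1027 is a quinoline compound made as an inhibitor of DNA methyltransferases; loss of DNA methylation is known to raise interferon-stimulated genes in cancer cells. Interferon-stimulated genes carry a promoter element bound by a complex of STAT factors and IRF9, mitotic genes carry an element (the cell cycle genes homology region, CHR) bound by the DREAM and MuvB complexes, and chaperone genes carry an element bound by HSF1.

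The libraries held 37046231 to 41516976 counts with DMSO and 37727687 to 39419553 with the combination. The renal lineage factor PAX8 was present in every library of both groups at 90.9 to 115 FPKM (read density, scaled to gene length and library size), VIM at 2659 to 3466 FPKM and KRT8 at 467 to 619 FPKM, while leukocyte, endothelial and hepatocyte markers (PTPRC, CD3E, LYZ, PECAM1, CDH5, VWF, ALB) stayed at or under 0.0444 FPKM. AQP1, a proximal tubule water channel, was near 0 as well, at 0.0817 to 0.261 FPKM. No library lay among those of the other group. DMSO replicate 1 was the farthest from its own, with a chi-square per gene of 10.4 and 13.3 against the other DMSO libraries and 3.62 between those, and 3.42 to 5.54 within the combination. Whether replicate libraries were grown as separate cultures is not stated in the labels, and p-values here measure only how far these libraries vary, which may be technical.

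The combination changed a large part of the transcriptome. At an adjusted p under 0.05 (edgeR's quasi-likelihood test), 4213 genes were higher than with DMSO, 32.8% of those tested, and 4283 were lower, 33.4%. Large changes were skewed upward, since 922 genes (7.18%) rose at least 2-fold and 340 (2.65%) fell at least 2-fold. Among the 9088 well expressed genes, 279 rose at least 2-fold (3.07%) and 126 fell at least 2-fold (1.39%). In all 279 and all 126 the 3 combination libraries lay outside the range of the 3 DMSO libraries, which was true of 69.2% of all tested genes. Selection by fold and adjusted p favours such separation, so it is no added support. The change was at least 4-fold for 38 of the 279 and for 8 of the 126. Among the 2101 genes with a mean of at least 100 CPM, 55 rose and 40 fell at least 2-fold.

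**Figure D1:**
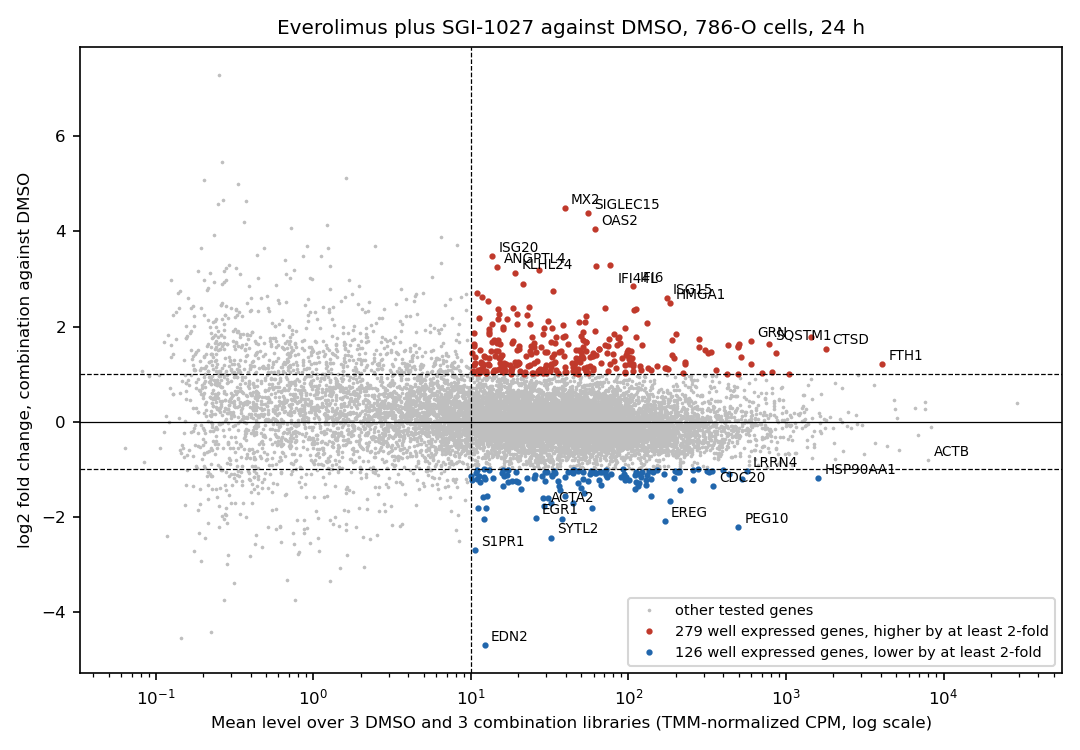
Each point is a tested gene, with its mean level over the 3 DMSO and 3 combination libraries (TMM-normalized CPM, log axis) on the x axis and its log2 fold change, combination against DMSO, on the y axis. Red marks the 279 well expressed genes higher by at least 2-fold and blue the 126 lower by at least 2-fold; dashed lines mark 10 CPM and a 2-fold change, and among the marked genes MX2 and SIGLEC15 have the largest rises and EDN2 the largest fall.

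Of the 279 well expressed genes that rose, 40 belong to a list of interferon response genes, the largest group. Antiviral effectors and factors that switch them on are among them, and the list also holds other genes, such as USP18 and TYMP. ISG15, a ubiquitin-like modifier, had 48.7, 51 and 48.9 CPM with DMSO and 299, 303 and 300.0 CPM with the combination. The 2 groups were far apart with little spread, a 6.07-fold rise (log2 fold change 2.60, SE 0.06, adjusted p = 2.02e-16). MX2, a dynamin-like GTPase that restricts viruses, had 2.52, 4.06 and 3.4 CPM with DMSO and 73.1, 76 and 77.2 CPM with the combination. It was the well expressed gene with the largest rise (log2 fold change 4.49, SE 0.14, adjusted p = 7.00e-15). MX2 passed the limit of 10 CPM only through its combination libraries. OAS2, which makes the 2-5A messenger that activates RNase L, had 5.9, 8.33 and 6.57 CPM with DMSO and 104, 121 and 119.8 CPM with the combination (log2 fold change 4.05, SE 0.12, adjusted p = 4.00e-15). For MX2 and OAS2 even the highest DMSO library was more than 10-fold below the lowest combination library. STAT2, a subunit of the transcription factor that acts on these genes, rose 5.07-fold, with 36.7, 35.9 and 33.9 CPM with DMSO and 176, 180.1 and 183 CPM with the combination (log2 fold change 2.34, SE 0.05, adjusted p = 3.03e-16).

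Promoter sequences of 3 of these genes show the interferon-stimulated response element (ISRE, here GAAA followed after any 2 bases by a second GAAA) in capitals, 5′ to 3′ on the gene's strand. They are from RefSeq, build GRCh38.p14, and were picked by hand among genes with a match and a single start site. The 3 genes rose by 7.23-fold (IFI6, a mitochondrial protein that limits cell death), 6.07-fold (ISG15) and 11.2-fold (ISG20, an RNA exonuclease). MX2 and OAS2 rose further and are not shown, so the display says nothing of how common the element is among strong risers. The IFI6 stretch is chr1:27672251-27672373 on the minus strand, the ISG15 stretch chr1:1013359-1013424 on the plus strand and the ISG20 stretch chr15:88638922-88638981 on the plus strand. IFI6 has 3 matches and ISG20 has 1, while the 2 matches in ISG15 overlap.
IFI6: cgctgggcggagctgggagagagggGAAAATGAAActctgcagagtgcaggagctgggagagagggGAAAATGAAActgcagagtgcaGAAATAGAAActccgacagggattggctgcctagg
ISG15: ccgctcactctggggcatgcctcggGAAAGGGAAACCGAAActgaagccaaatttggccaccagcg
ISG20: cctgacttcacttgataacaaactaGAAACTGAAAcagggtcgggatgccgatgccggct
A RefSeq promoter was found for 76.6% of the tested interferon genes, under the 80% set for giving a share of promoters with a motif, so that check is void for this list.

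Over the whole interferon list, 61 of 64 tested members rose against 32.8% of all genes, 1 fell, and the median log2 fold change was 1.62 against 0.01 for all tested genes. For 48 of them the rise was at least 2-fold. The exception was GBP2, a guanylate-binding GTPase, which fell (log2 fold change -1.03, SE 0.11, adjusted p = 2.69e-07). The summed level of the 64 members was 4766 to 5039 CPM with DMSO, 5555 to 5709 CPM with everolimus, 9175 to 10139.7 CPM with SGI-1027 and 10535 to 10748 CPM with the combination. ISG15 was higher with the combination than with SGI-1027 (adjusted p = 8.28e-08) and than with everolimus (adjusted p = 2.60e-15), its log2 fold change against DMSO being 1.96 with SGI-1027 and 0.27 with everolimus. MX2 stood at 3.90 with SGI-1027 and 0.69 with everolimus, and again the combination was above both (adjusted p = 3.53e-04 and 9.50e-14). Genes of antigen presentation, most of MHC class I and some of class II (such as CD74 and HLA-DMA), rose with a smaller size: 21 of 27 tested rose and 1, the chaperone CALR, fell (77.8% and 3.7%), with a median of 0.71. B2M, the class I light chain, had 992, 1015 and 1046 CPM with DMSO and 1868, 1922 and 1869 CPM with the combination, a 1.85-fold rise (log2 fold change 0.89, SE 0.03, adjusted p = 1.72e-13).

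**Figure D2:**
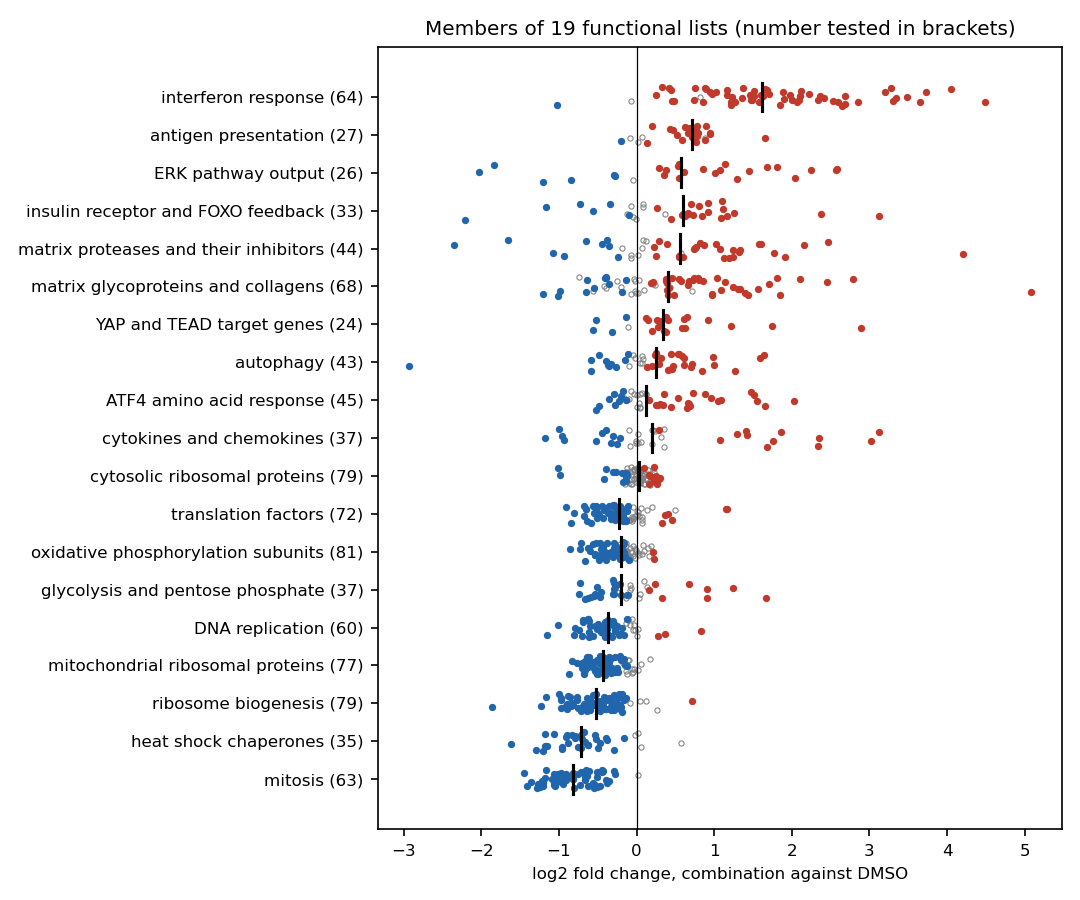
Each point is a tested member of one of 19 functional lists, placed by its log2 fold change, combination against DMSO (x axis); red rose and blue fell at an adjusted p under 0.05, open grey points did not pass, black ticks are list medians and numbers in brackets are members tested. The interferon list lies furthest to the right, with a median of 1.62, and the mitosis list furthest to the left, with a median of -0.82.

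SIGLEC15, a sialic acid-binding receptor of the immunoglobulin family, was on none of the lists and rose nearly as far as MX2. It had 5.13, 5.25 and 4.82 CPM with DMSO and 99.6, 104 and 112 CPM with the combination (log2 fold change 4.38, SE 0.11, adjusted p = 6.85e-16). Each drug alone raised it less, by 2.14 with everolimus and 2.96 with SGI-1027 on the log2 scale, and the combination was above both (adjusted p = 1.39e-12 and 3.30e-09). KLHL24, a ubiquitin ligase adaptor known as a FOXO target, had 4.27, 3.69 and 3.85 CPM with DMSO and 34.7, 34.6 and 33.3 CPM with the combination (log2 fold change 3.12, SE 0.07, adjusted p = 2.59e-16). Here the single drugs reached 2.80 with everolimus and 2.74 with SGI-1027, so most of the rise was present with either drug. On the list of insulin receptor and FOXO feedback genes, 20 of 33 tested rose and 6 fell (60.6% and 18.2%, against 32.8% and 33.4% of all genes), with a median of 0.60. At least 2-fold, 7 members rose and 2 fell, and the lowest log2 fold change on the list was -2.22. FBXO32, the atrogin ubiquitin ligase that FOXO factors induce, was not on that list and rose 5.21-fold (log2 fold change 2.38, SE 0.08, adjusted p = 2.07e-14). LBH, a transcription cofactor, rose 6.67-fold (log2 fold change 2.74, SE 0.07, adjusted p = 4.20e-16).

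Genes of several secreted and cell surface proteins rose. INHBA, the activin A subunit, had 81.6, 87.4 and 93.3 CPM with DMSO and 306, 318 and 319 CPM with the combination (log2 fold change 1.85, SE 0.05, adjusted p = 6.52e-16). Each combination library was at least 3-fold above every DMSO library for INHBA. IL6, an inflammatory cytokine, had 39.3, 36.6 and 41.5 CPM with DMSO and 129.8, 139.5 and 126 CPM with the combination (log2 fold change 1.75, SE 0.07, adjusted p = 2.49e-13). ANGPTL4, an inhibitor of lipoprotein lipase, had 3.09, 2.38 and 2.98 CPM with DMSO and 25.1, 26.5 and 28.2 CPM with the combination (log2 fold change 3.24, SE 0.13, adjusted p = 2.67e-13), with 1.32 for SGI-1027 and 0.08 for everolimus. NT5E, the ecto-nucleotidase CD73 that makes adenosine, had 121, 132 and 133 CPM with DMSO and 399, 449.8 and 445 CPM with the combination (log2 fold change 1.75, SE 0.05, adjusted p = 3.90e-15). These 4 genes had no overlap between groups, like 69.2% of all tested genes.

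Of 44 tested matrix proteases and their inhibitors, 27 rose and 9 fell (61.4% and 20.5%, against 32.8% and 33.4% of all genes), with a median of 0.56. PLAU, the urokinase plasminogen activator, rose 2.52-fold (log2 fold change 1.33, SE 0.05, adjusted p = 4.63e-14) and ADAMTS15 fell (log2 fold change -1.66, SE 0.10, adjusted p = 9.06e-11). Matrix glycoproteins and collagens rose in 37 of 68 tested and fell in 12 (54.4% and 17.6%, against 32.8% and 33.4% of all genes), with a median of 0.40. LAMB3, a laminin chain of basement membranes, had 245, 255 and 255 CPM with DMSO and 697, 748 and 782 CPM with the combination (log2 fold change 1.56, SE 0.04, adjusted p = 1.54e-15), and COL6A3, a collagen VI chain, rose 1.97-fold (log2 fold change 0.98, SE 0.04, adjusted p = 9.24e-14), while VCAN, the proteoglycan versican, fell (log2 fold change -0.63, SE 0.04, adjusted p = 1.49e-10). Among 37 tested cytokines and chemokines, 12 rose and 11 fell, shares of 32.4% and 29.7% that lie close to those of all genes. CSF2, which encodes GM-CSF, was among the risers (log2 fold change 1.07, SE 0.05, adjusted p = 7.90e-12) and CSF1, which encodes the macrophage growth factor M-CSF, fell 2.01-fold (log2 fold change -1.01, SE 0.05, adjusted p = 2.77e-12).

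Genes that report on ERK signalling moved in both directions. Of 26 tested, 19 rose and 6 fell (73.1% and 23.1%, against 32.8% and 33.4% of all genes), with a median of 0.58 and 11 past 2-fold upward. ETV5, an ETS transcription factor, had 16.5, 17.8 and 18.6 CPM with DMSO and 58.4, 64.7 and 62.5 CPM with the combination (log2 fold change 1.81, SE 0.07, adjusted p = 3.00e-13), and DUSP6, the phosphatase that acts on ERK, had 5.29, 5.49 and 5.66 CPM with DMSO and 14.1, 16.2 and 14.5 CPM with the combination (log2 fold change 1.45, SE 0.09, adjusted p = 1.36e-10). MAFF, a small MAF transcription factor, rose 4.74-fold (log2 fold change 2.25, SE 0.08, adjusted p = 3.45e-14). EGR1, an immediate early transcription factor, went the other way, with 49.3, 34.1 and 41 CPM with DMSO and 10.4, 10.4 and 9.52 CPM with the combination (log2 fold change -2.03, SE 0.15, adjusted p = 1.13e-09). So did EREG, a ligand of the EGF receptor, with 247, 279 and 300.0 CPM with DMSO and 61.6, 64.2 and 67.7 CPM with the combination (log2 fold change -2.09, SE 0.07, adjusted p = 4.49e-14). The receptor itself, EGFR, rose 1.58-fold (log2 fold change 0.66, SE 0.04, adjusted p = 5.62e-11). EREG and EGFR are on the list of EGF family ligands and receptors and not on that of ERK output. Of its 13 tested members 4 rose and 4 fell (30.8% each), close to the shares of all genes. DUSP6 lies outside the rule for named genes and was chosen after its values were seen.

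Stress response genes were mixed. Of 45 tested genes of the ATF4 amino acid response, 22 rose and 9 fell (48.9% and 20%, against 32.8% and 33.4% of all genes), with a median of 0.13. WARS1, tryptophanyl-tRNA synthetase and also an interferon-induced gene, had 178, 179 and 176 CPM with DMSO and 468, 513 and 500.0 CPM with the combination (log2 fold change 1.47, SE 0.04, adjusted p = 2.04e-15), and ASNS, asparagine synthetase, had 30.7, 34.9 and 34.8 CPM with DMSO and 89.7, 100.3 and 97.6 CPM with the combination (log2 fold change 1.52, SE 0.07, adjusted p = 6.91e-13). The transporter SLC7A5 fell (log2 fold change -0.28, SE 0.04, adjusted p = 2.63e-05). SQSTM1, the autophagy receptor p62, was among the most precisely measured rises with 379.6, 380.0 and 374 CPM with DMSO and 1152, 1173 and 1207 CPM with the combination (log2 fold change 1.64, SE 0.03, adjusted p = 1.03e-16). Its level was above that of each single drug, whose log2 fold changes were 0.73 for everolimus and 1.11 for SGI-1027 (adjusted p = 3.34e-13 and 3.39e-09). FTH1, the ferritin heavy chain, had 2587, 2477 and 2310.3 CPM with DMSO and 5705, 5851 and 5582 CPM with the combination (log2 fold change 1.22, SE 0.06, adjusted p = 2.94e-12). FTH1 has many processed pseudogenes, so how its reads were assigned is uncertain. It is on a list of NRF2 targets, of which 9 of 31 tested rose and 16 fell. These are 29% and 51.6%, against 32.8% and 33.4% of all genes. On the iron handling list, which also holds it, 10 of 19 tested rose and 7 fell (52.6% and 36.8%). NDRG1, a gene raised by hypoxia and metal stress, had 226, 201 and 206 CPM with DMSO and 629.8, 637 and 655 CPM with the combination (log2 fold change 1.60, SE 0.06, adjusted p = 2.54e-13), and 16 of 29 tested hypoxia genes rose and 7 fell (55.2% and 24.1%, against 32.8% and 33.4% of all genes).

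**Figure D3:**
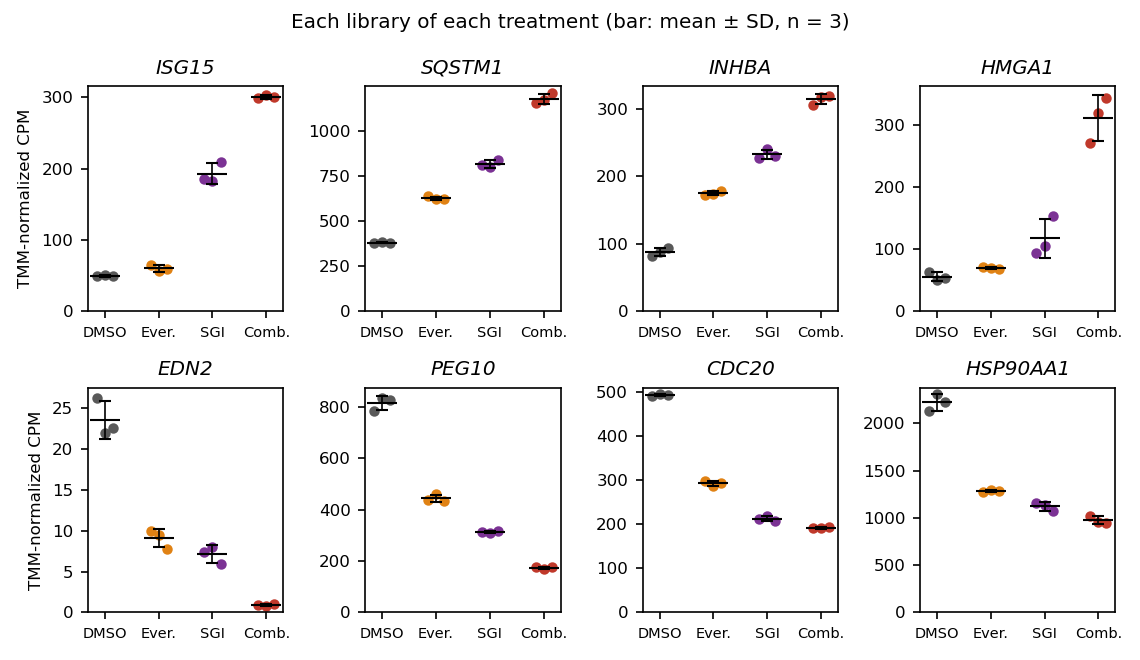
TMM-normalized CPM (y axis, from 0) of 8 genes in each of the 3 libraries of DMSO, everolimus (Ever.), SGI-1027 (SGI) and the combination (Comb.); points are libraries and black bars the mean ± SD (n = 3). ISG15, SQSTM1, INHBA and HMGA1 are highest and EDN2, PEG10, CDC20 and HSP90AA1 lowest in the 3 combination libraries.

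Mitotic genes formed the largest group among the falls, with 22 of the 126 well expressed genes that fell at least 2-fold. Over the list, 62 of 63 tested members fell, against 33.4% of all genes, 0 rose by edgeR (also 0 by an unadjusted p under 0.05 and by DESeq2), and the median was -0.82. CENPK was the member that did not pass. CDC20, the activator of the anaphase-promoting complex, had 491, 495 and 493 CPM with DMSO and 191, 191 and 194 CPM with the combination (log2 fold change -1.36, SE 0.03, adjusted p = 6.85e-16). PLK1, a mitotic kinase, had 329, 307 and 294 CPM with DMSO and 112, 113 and 115 CPM with the combination (log2 fold change -1.45, SE 0.05, adjusted p = 1.34e-13). KIF20A, a kinesin of the central spindle, had 279, 280.2 and 275 CPM with DMSO and 88.6, 85.4 and 86.3 CPM with the combination (log2 fold change -1.68, SE 0.04, adjusted p = 2.59e-16). The groups were separate for all 3, as they were for 69.2% of all tested genes. AURKA, a spindle pole kinase, fell 2.67-fold (log2 fold change -1.42, SE 0.04, adjusted p = 4.00e-15), and CCNB1, the mitotic cyclin B1, fell 2.44-fold (log2 fold change -1.29, SE 0.06, adjusted p = 9.82e-13).

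The summed level of the 63 mitotic genes was 10127 to 10363 CPM with DMSO, 7592 to 7802 CPM with everolimus, 5968 to 6081 CPM with SGI-1027 and 5580.5 to 5608 CPM with the combination. By the direct contrast CDC20 was lower with the combination than with SGI-1027 (adjusted p = 0.00412) by a log2 difference of -0.15. CCNB1 did not pass it (adjusted p = 0.121, log2 difference -0.13, SE 0.06). Against everolimus both were lower (adjusted p = 7.89e-11 and 4.54e-08). In bulk RNA, fewer cells in mitosis and less of these transcripts per cell cannot be told apart.

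The CHR element (TTTGAA, either strand, within 250 bases before a RefSeq start site) was present in the promoters of 26 of 52 mitotic genes with a RefSeq entry, 50%, and in 12.1% of all 10506 tested genes with one. Stretches of 4 of them are printed to show it, in GRCh38.p14 and on the plus strand, with the element in capitals: CDC20 at chr1:43358773-43358951, PLK1 at chr16:23678830-23678888, CDCA8 (a subunit of the chromosomal passenger complex) at chr1:37692463-37692515 and CCNB2 (cyclin B2) at chr15:59105087-59105145.
CDC20: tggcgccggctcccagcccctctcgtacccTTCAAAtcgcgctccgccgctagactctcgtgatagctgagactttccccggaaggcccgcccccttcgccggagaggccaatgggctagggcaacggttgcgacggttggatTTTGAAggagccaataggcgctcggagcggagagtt
PLK1: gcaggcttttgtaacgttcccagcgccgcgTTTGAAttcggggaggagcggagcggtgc
CDCA8: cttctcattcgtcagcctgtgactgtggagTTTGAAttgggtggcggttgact
CCNB2: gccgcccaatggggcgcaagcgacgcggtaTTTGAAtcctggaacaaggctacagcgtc
CDC20 has 2 matches, one of them on the other strand. The nearest match ends 60 bases before the start site in CDC20, 24 in PLK1, 18 in CDCA8 and 24 in CCNB2. CDCA8 (log2 fold change -1.27, SE 0.04, adjusted p = 4.37e-14) and CCNB2 (log2 fold change -0.98, SE 0.04, adjusted p = 1.15e-12) were added for this display after their values were seen. DNA replication genes fell too, 47 of 60 tested against 3 that rose (78.3% and 5%, against 33.4% and 32.8% of all genes). Their median was -0.37, with only 2 falling at least 2-fold. Each drug alone gave a lower median, -0.48 with everolimus and -0.45 with SGI-1027. Their summed level was 5685 to 5812 CPM with DMSO and 4360.5 to 4473 CPM with the combination. It was 4158 to 4175 CPM with everolimus and 4178 to 4217 CPM with SGI-1027, below the combination. TYMS, thymidylate synthase, fell 2.02-fold (log2 fold change -1.01, SE 0.04, adjusted p = 1.27e-13), and E2F7, a repressor among the E2F factors, rose (log2 fold change 0.83, SE 0.06, adjusted p = 5.57e-10). The E2F element TTTGGCGC lay in 8 of 51 replication promoters, 15.7%, and in 1.16% of all.

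Chaperones of the heat shock response fell together. Of 35 tested, 31 fell (88.6%, against 33.4% of all genes) and the median was -0.72. By edgeR 0 rose (0 also by DESeq2, and 1 by an unadjusted p under 0.05), against 32.8% of all genes. HSP90AA1, the inducible cytosolic HSP90, had 2133, 2309.8 and 2222 CPM with DMSO and 1019.7, 960.4 and 948 CPM with the combination (log2 fold change -1.19, SE 0.04, adjusted p = 3.00e-14). HSPA4L, an HSP110-type exchange factor, had 42, 42.1 and 45.5 CPM with DMSO and 13.2, 14.6 and 14.5 CPM with the combination (log2 fold change -1.62, SE 0.07, adjusted p = 1.04e-12). FKBP4, an HSP90 co-chaperone and immunophilin, had 268, 272 and 271 CPM with DMSO and 118, 119 and 120.0 CPM with the combination (log2 fold change -1.18, SE 0.03, adjusted p = 4.87e-15). The groups were separate for these 3 chaperones, as for 69.2% of all tested genes. For FKBP4 each single drug gave a like value, -1.12 with everolimus and -1.19 with SGI-1027, and neither direct contrast passed (adjusted p = 0.151 and 0.913); HSP90AA1 was lower with the combination than with either (adjusted p = 2.16e-07 and 0.00133). The heat shock element (GAA, TTC and GAA with any 2 bases between neighbours) was found in 6 of 30 chaperone promoters, 20%, and in 0.466% of all.

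Ribosome production genes were lower in nearly the whole list. Of 79 tested, 74 fell and 1 rose (93.7% and 1.27%, against 33.4% and 32.8% of all genes), with a median of -0.52 and 3 past 2-fold downward. NCL, the nucleolar protein nucleolin, had 1128, 1190.0 and 1191 CPM with DMSO and 664, 645 and 644 CPM with the combination (log2 fold change -0.85, SE 0.04, adjusted p = 5.79e-13). NPM1, nucleophosmin, had 1147, 1224 and 1182 CPM with DMSO and 674, 662 and 666 CPM with the combination (log2 fold change -0.83, SE 0.03, adjusted p = 2.55e-13); it has processed pseudogenes and its reads are uncertain to that extent. BOP1, a subunit of the PeBoW complex that matures the large subunit, fell 2.34-fold (log2 fold change -1.23, SE 0.04, adjusted p = 3.66e-14). The riser was NOP53 (log2 fold change 0.71, SE 0.05, adjusted p = 4.31e-10). In summed level the list held 8221 to 8516 CPM with DMSO, 5492 to 5547 CPM with the combination, 5277 to 5372 CPM with everolimus and 5357 to 5449 CPM with SGI-1027. NCL did not pass either direct contrast (adjusted p = 0.0888 against everolimus, log2 difference -0.08, SE 0.04; adjusted p = 0.803 against SGI-1027, log2 difference -0.02, SE 0.04).

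The ribosomal proteins themselves behaved otherwise. Cytosolic ribosomal protein genes rose in 11 and fell in 13 of 79 tested (13.9% and 16.5%, against 32.8% and 33.4% of all genes), with a median of 0.03. The values were measured on mRNA and say nothing of translation. Mitochondrial ribosomal protein genes fell in 64 of 77 tested (83.1%, against 33.4% of all genes), with a median of -0.43. By edgeR 0 rose (0 also by DESeq2, and 0 by an unadjusted p under 0.05), against 32.8% of all genes. MRPL3 is an example of the falls (log2 fold change -0.70, SE 0.04, adjusted p = 2.74e-11). Subunits of oxidative phosphorylation encoded in the nucleus fell in 49 of 81 and rose in 2 (60.5% and 2.47%, against 33.4% and 32.8% of all genes), with a median of -0.20. On the list of translation factors, which also holds kinases, methyltransferases and repressors that act on them, 44 of 72 fell and 6 rose. These are 61.1% and 8.33%, against 33.4% and 32.8% of all genes, with a median of -0.22. EIF4G2, an initiation factor of the eIF4G family, fell 1.89-fold (log2 fold change -0.92, SE 0.03, adjusted p = 4.14e-14), and EIF2AK2, the antiviral kinase PKR, rose (log2 fold change 1.16, SE 0.05, adjusted p = 3.64e-13).

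EDN2, which encodes the vasoconstrictor endothelin-2, fell most of all well expressed genes and passed the limit of 10 CPM only through its DMSO libraries. It had 26.3, 22 and 22.5 CPM with DMSO and 0.938, 0.727 and 1.05 CPM with the combination, a 26-fold fall (log2 fold change -4.70, SE 0.16, adjusted p = 2.63e-14). Each drug alone lowered it less, the log2 fold change being -1.38 with everolimus and -1.73 with SGI-1027 (adjusted p against the combination 2.12e-11 and 2.36e-09). EDN1, endothelin-1, rose (log2 fold change 1.51, SE 0.09, adjusted p = 7.13e-11). S1PR1, a receptor for sphingosine 1-phosphate, had 18.8, 17.5 and 18.8 CPM with DMSO and 2.71, 2.78 and 2.92 CPM with the combination (log2 fold change -2.71, SE 0.09, adjusted p = 3.84e-14). PEG10, a retrotransposon-derived gene expressed from the paternal allele, had 785, 835 and 827 CPM with DMSO and 176, 170.0 and 177 CPM with the combination (log2 fold change -2.23, SE 0.04, adjusted p = 1.43e-17). For S1PR1 and PEG10 every combination library was more than 4-fold below every DMSO library. ALDH1A1, a retinaldehyde dehydrogenase, had 59.8, 61 and 61.2 CPM with DMSO and 17, 13.7 and 12.9 CPM with the combination (log2 fold change -2.06, SE 0.08, adjusted p = 9.24e-14). CA2, cytosolic carbonic anhydrase, fell 3.52-fold (log2 fold change -1.81, SE 0.06, adjusted p = 5.89e-14), and GAL3ST1, the enzyme that makes sulfatide and is high in renal carcinoma, fell 2.98-fold (log2 fold change -1.58, SE 0.06, adjusted p = 2.31e-13).

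Cytoskeletal genes showed no single direction. Of 39 tested contractile genes and targets of the factor SRF, 14 rose and 17 fell (35.9% and 43.6%, against 32.8% and 33.4% of all genes), with a median of -0.02. ACTA2, smooth muscle actin, had 47, 47.8 and 41.3 CPM with DMSO and 15.9, 11.8 and 11.8 CPM with the combination (log2 fold change -1.78, SE 0.09, adjusted p = 8.13e-12), and ACTB, the main cytoplasmic actin, fell 1.75-fold (log2 fold change -0.81, SE 0.04, adjusted p = 1.05e-11). TPM1, a tropomyosin, rose (log2 fold change 0.55, SE 0.03, adjusted p = 7.50e-11). On the tubulin list, which also holds proteins of the γ-tubulin complex, 14 of 21 fell and 3 rose (66.7% and 14.3%, against 33.4% and 32.8% of all genes). TUBA1B fell (log2 fold change -0.68, SE 0.03, adjusted p = 4.97e-12) while TUBA1A rose (log2 fold change 1.20, SE 0.04, adjusted p = 6.68e-14); actins and α-tubulins are near-identical in coding sequence, so reads could be split between copies. Targets of YAP and TEAD rose in 19 of 24 and fell in 4 (79.2% and 16.7%, against 32.8% and 33.4% of all genes), with a median of 0.33. ANKRD1, a cardiac ankyrin repeat protein and YAP target, had 4.83, 5.49 and 4.97 CPM with DMSO and 38.8, 40.1 and 34.7 CPM with the combination (log2 fold change 2.89, SE 0.09, adjusted p = 6.80e-15). CCN2, connective tissue growth factor, had 62.3, 55.6 and 70.3 CPM with DMSO and 145, 151 and 143 CPM with the combination (log2 fold change 1.22, SE 0.07, adjusted p = 1.53e-11).

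Of the 279 genes that rose, 14 were on the lysosome and pyroptosis lists, 116 on another list and 149 on none; of the 126 that fell, 54 were on a list and 72 on none. The 5 unlisted genes of highest CPM in each direction were picked after their values were seen. Those that rose were IGFN1, ITPR3 (an inositol trisphosphate receptor channel), GRN (progranulin), RNF213 (a large ubiquitin ligase) and AHNAK2, by 2.72-fold, 2.33-fold, 3.22-fold, 2.58-fold and 3.02-fold. GRN had 292, 284 and 273 CPM with DMSO and 874, 884 and 973 CPM with the combination (log2 fold change 1.69, SE 0.06, adjusted p = 2.63e-14). Those that fell were LRRN4, PEG10, KPNA2 (an importin), TM4SF1 (a tetraspanin-like membrane protein) and RANBP1 (a cofactor of the Ran GTPase), by 2.07-fold, 4.68-fold, 2.03-fold, 2.1-fold and 2.07-fold. HMGA1, an architectural chromatin protein, was unlisted too and had the largest rise of an unlisted gene above 100 CPM, with 63.4, 49.7 and 53 CPM with DMSO and 270.1, 319 and 342 CPM with the combination (log2 fold change 2.49, SE 0.14, adjusted p = 1.88e-11). It has processed pseudogenes, which makes its read count less certain. On the lysosome list, 68 of 95 tested rose and 9 fell (71.6% and 9.47%, against 32.8% and 33.4% of all genes), with a median of 0.46, and on the pyroptosis list 21 of 35 rose and 8 fell (60% and 22.9%, against 32.8% and 33.4% of all genes), with a median of 0.31.

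Each well expressed gene was also set against each drug alone. Over all tested genes the combination differed from SGI-1027 in 19.6% and from everolimus in 39.3%. Of the 279 genes that rose, 241 were higher than with everolimus and 200 higher than with SGI-1027 by the direct contrasts, and 195 were higher than with both. Of the 126 that fell, 112 were lower than with everolimus, 87 lower than with SGI-1027 and 86 lower than with both. These genes were selected by their change with the combination, so these counts describe them and test nothing about the selection. For 8 of the 279, everolimus alone gave a fall that passed its own test, as for CCND1 (cyclin D1) with -0.41 and G0S2 (an inhibitor of triglyceride lipase) with -0.34. CCND1 had 321, 332 and 335 CPM with DMSO and 642, 673 and 668 CPM with the combination (log2 fold change 1.01, SE 0.04, adjusted p = 5.43e-14), and G0S2 50.1, 48.2 and 52.8 CPM with DMSO and 163, 178 and 174 CPM with the combination (log2 fold change 1.77, SE 0.05, adjusted p = 2.67e-15). For 1 of the 126 everolimus alone gave a rise, TNFRSF19, a receptor of the TNF family. With SGI-1027 alone, 0 of the 279 fell and 0 of the 126 rose by edgeR, at an adjusted p under 0.05 (0 and 0 by an unadjusted p under 0.05).

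A further 20 genes were set apart by a rule chosen after the values were seen: a change of at least 2-fold with the combination, under 0.5 on the log2 scale with either drug, and past both direct contrasts. They were 13 that rose and 7 that fell. ACTA2 changed most, with -0.25 for everolimus and -0.29 for SGI-1027 (adjusted p against the combination 2.31e-10 and 3.30e-09). CYP1B1, a cytochrome P450 induced through the aryl hydrocarbon receptor, had 49.6, 50.9 and 48.1 CPM with DMSO and 17.4, 16.2 and 11.6 CPM with the combination (log2 fold change -1.72, SE 0.10, adjusted p = 4.52e-11), with 0.17 for everolimus and -0.39 for SGI-1027. PDZK1, a scaffold of brush border transporters in the proximal tubule, had 63.1, 47.3 and 51.5 CPM with DMSO and 21.8, 19.3 and 18.6 CPM with the combination (log2 fold change -1.44, SE 0.12, adjusted p = 9.20e-09), against -0.20 and -0.09 with the single drugs. The 3 combination libraries were lowest for both genes. ELF3, an epithelial ETS factor, had 82.8, 81.3 and 79.1 CPM with DMSO and 42.7, 37 and 37.4 CPM with the combination (log2 fold change -1.06, SE 0.06, adjusted p = 1.58e-11), against -0.03 and -0.11. Among the risers ITGA2, the collagen-binding integrin α2, had 13.1, 13.8 and 12.5 CPM with DMSO and 30.7, 36 and 38.5 CPM with the combination (log2 fold change 1.41, SE 0.08, adjusted p = 2.43e-11), against 0.47 and 0.41. MARCHF4, a membrane ubiquitin ligase, had the largest rise of the 13 (log2 fold change 1.59, SE 0.15, adjusted p = 4.61e-08), and SPRY2 and DUSP10, feedback inhibitors of MAP kinase signalling, were among them (log2 fold change 1.07, SE 0.10, adjusted p = 4.17e-08 and log2 fold change 1.14, SE 0.07, adjusted p = 2.38e-10).

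**Figure D4:**
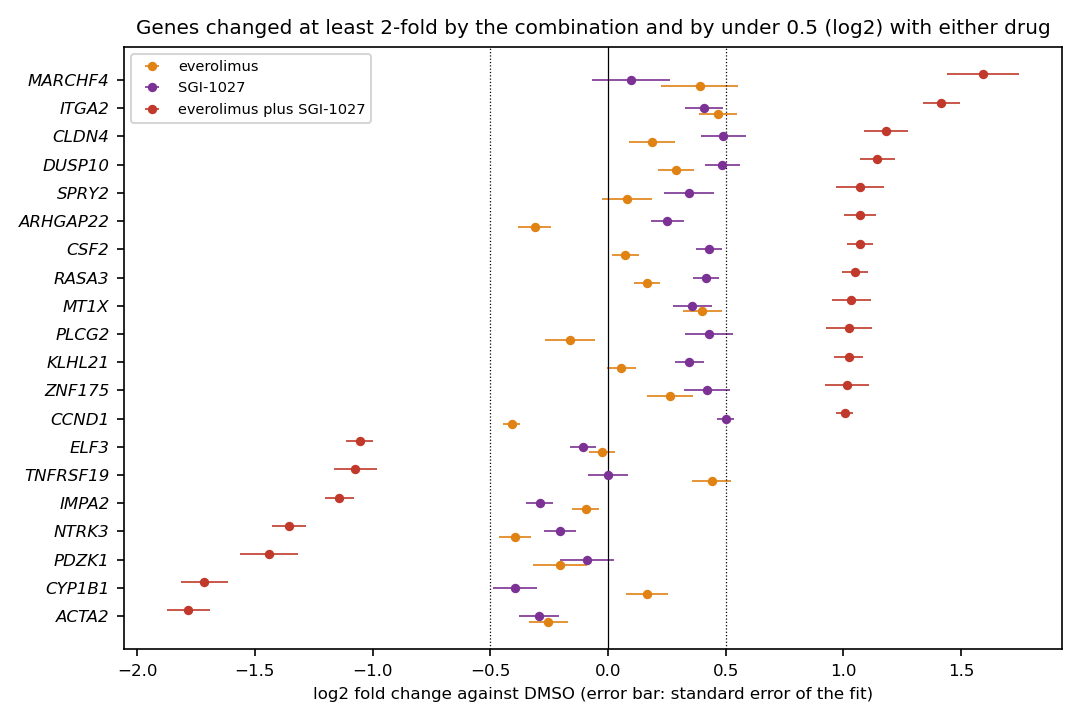
Log2 fold change against DMSO (x axis) of the 20 genes that changed at least 2-fold with the combination and by under 0.5 with either drug, in everolimus (orange), SGI-1027 (purple) and the combination (red); error bars are the standard error of the fit and dotted lines mark 0.5. The rule fixes the gap that the plot shows; within it MARCHF4 has the largest rise and ACTA2 the largest fall.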

How the data were processed

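RNA-seq of 786-O cells was deposited as a table of raw counts per gene, made by the authors and not normalized, and as a table of FPKM, which the authors computed by scaling counts to gene length and library size. The aligner, counter and annotation are not given in the sources used here; the submitters' processing notes name the mouse builds GRCm38 and mm10, whereas 98.5% of the 17085 symbols are in the human gene table, so no gene coordinates were taken from the files. The notes on RNA extraction and library kits differ between the labels and the study's methods.

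Counts of all 12 libraries were normalized by TMM, filtered with filterByExpr by group and fitted in edgeR 4.0.16 (R 4.3.3) with glmQLFit; the contrast combination minus DMSO and the contrasts of the combination with each drug were tested with glmQLFTest, with Benjamini-Hochberg adjustment over the 12841 tested genes and a threshold of 0.05. CPM are TMM-normalized, and well expressed means a mean of at least 10 CPM over the 6 libraries. On simulated counts for this contrast, 199 of 200 changed genes were recovered (99 at 2-fold and 100 at 4-fold) with 10 false calls among 12571 genes tested. The simulation gave every gene the same dispersion and changed only genes with ample DMSO counts, as many up as down. In the data 66.2% of tested genes were called, so it checks the code and cannot give the error rate or test the normalization here. Named genes were the 20 highest and 20 lowest log2 fold changes of well expressed genes past 2-fold with no overlap between groups and not on the lysosome or pyroptosis list, the 10 highest and 10 lowest above 100 CPM, and the 3 members with the smallest p in each direction of each of the 54 lists; genes added later are said to be so, and a few genes that the rule names are not reported here. Genes and lists were chosen with earlier results of these data known, so list counts are descriptions beside those of all genes. RefSeq promoters (GRCh38.p14) were matched by symbol for 81.8% of tested genes, and motifs were sought on both strands of the 250 bases before any start site. Figures used matplotlib. Alternatives were DESeq2 1.42.0, other normalizations and filters, limma 3.58.1 on log2(FPKM + 1) and log2(FPKM + 0.1), a block on replicate number, glmTreat at a fold of 1.5 and leaving out each library.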

Additional observations from a re-analysis of the deposited data

How the results depend on the processing

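The numbers of genes that rose or fell at the adjusted threshold, past 2-fold, and past 2-fold among well expressed genes stayed within 1.5 times the reported ones with DESeq2, DESeq2 size factors, upper-quartile normalization, either other filter on counts, only the 6 libraries of the contrast, and an unadjusted p. On log2(FPKM + 1), whose pseudocount pulls low genes towards no change, 250 genes were higher and 84 lower by at least 2-fold, and 75 well expressed genes were lower; on log2(FPKM + 0.1), 205 were lower by at least 2-fold. Testing against a fold of 1.5 with glmTreat, which asks for more than a difference, left 1103 genes higher and 611 lower. With a mean of at least 3 CPM in place of 10, 436 genes rose at least 2-fold, and with at least 30 CPM, 154 did. Leaving out 1 library gave 265 to 294 well expressed genes higher and 123 to 130 lower by at least 2-fold. Replicate numbers did not pair the libraries: the correlations of same-numbered DMSO and combination libraries were 0.008, -0.040 and -0.051. With the replicate block, 277 well expressed genes rose and 125 fell at least 2-fold. Of 368 genes named by the rule or added, 0 changed direction under the alternatives that tested them (359 of the 368 were tested with at least 10 counts in every library); 106 no longer passed under glmTreat and 1, ATP5F1E, did not pass without DMSO replicate 1 (adjusted p 0.0817) or without combination replicate 1 (adjusted p 0.0890). The rule picks genes by a small p or a large change in these same libraries, so a kept direction is no added support. Of 918 list medians over the alternatives, 17 changed sign, in lists whose reported median was under 0.1 in size. Depth limits genes under about 1 CPM, and 3 libraries a group limit the precision of small changes.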

Other observations

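Genes under 10 CPM were left out of the account of well expressed genes, and some of them moved further. They were picked here after their values were seen, and each value below is a raw count in 1 library. HRK, a BH3-only member of the BCL2 family that promotes apoptosis, had 0, 0 and 0 counts with DMSO and 21, 13 and 24 with the combination. With no count in 117159958 counts over the 3 DMSO libraries, a floor of 3 counts over that group puts HRK at least 19.7-fold higher with the combination. ACP5, tartrate-resistant acid phosphatase and a member of the lysosome list, had 3, 4 and 3 counts with DMSO and 117, 99 and 145 with the combination (log2 fold change 5.13, SE 0.31, adjusted p = 8.22e-11). MMP10, the protease stromelysin 2, had 2, 0 and 2 counts with DMSO and 29, 24 and 27 with the combination (log2 fold change 4.20, SE 0.57, adjusted p = 3.74e-06), and GPNMB, a membrane glycoprotein of melanosomes and lysosomes, had 1, 2 and 6 counts with DMSO and 55, 53 and 50 with the combination (log2 fold change 4.08, SE 0.41, adjusted p = 7.84e-08). ROBO4, a receptor best known from endothelium, had 32, 52 and 11 counts with DMSO and 430, 499 and 475 with the combination (log2 fold change 3.89, SE 0.24, adjusted p = 9.67e-11); the endothelial markers PECAM1, CDH5 and VWF stayed at or under 0.0406 FPKM in the same libraries. IFITM1, an interferon-induced membrane protein that blocks viral entry, had 22, 81 and 32 counts with DMSO and 573, 580 and 621 with the combination (log2 fold change 3.73, SE 0.28, adjusted p = 1.62e-09), and its DMSO replicate 2 was the highest of the 3.

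Falls of the same kind were seen in CNN1, the smooth muscle calponin, with 167, 145 and 125 counts with DMSO and 25, 11 and 16 with the combination (log2 fold change -3.06, SE 0.25, adjusted p = 5.06e-09), and in KLF17, a Krüppel-like transcription factor, with 106, 105 and 95 counts with DMSO and 11, 17 and 8 with the combination (log2 fold change -3.07, SE 0.27, adjusted p = 1.43e-08). DHRS9, a retinol dehydrogenase, had 89, 91 and 90 counts with DMSO and 19, 6 and 1 with the combination (log2 fold change -3.35, SE 0.39, adjusted p = 5.64e-07), and CAVIN2, a coat protein of caveolae, had 68, 46 and 52 counts with DMSO and 3, 7 and 2 with the combination (log2 fold change -3.75, SE 0.40, adjusted p = 1.62e-07). The 2 groups did not overlap in any of these low genes, which were picked for their change, nor in 69.2% of all tested genes. The implied transcript length of the 279 well expressed genes that rose had a median of 4721 bases and that of the 126 that fell 3227 bases, beside 4219 bases for all 9088 well expressed genes, with quartiles of 2569 and 6570.2 bases.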
